A study of Homo sapiens with 18 samples.

Results

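The genes described here encode subunits of respiratory complexes II to IV and of the ATP synthase (complex V), together with cytochrome c. They were chosen by gene symbol from a list of 39 nuclear genes, older ATP5 names included, with 1 probe set per gene (the brightest over all arrays). The array had a probe set that carries 1 symbol only for 19775 genes. Of the 39, 36 had one, and 35 of these passed a filter on low values: 3 of complex II, 8 of complex III with cytochrome c, 10 of complex IV and 14 of complex V. SDHB and UQCRFS1 had no probe set under their own symbol alone and were not analysed here, and the only one for UQCRH also carries the symbol of its near-identical copy UQCRHL. For ATP5MF, 1 probe set shared with another symbol was not used, and the only one of its own lay below the filter, at a mean of 4.75 on the log2 scale explained below, with signals of 2.2 to 27.3 in depleted and 4.1 to 44.8 in control arrays.

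Expression was measured on Affymetrix arrays in Caco-2, a cell line from a human colon tumour that serves as a model of intestinal epithelium. One medium was DMEM without riboflavin (vitamin B2, from which cells make the cofactors FMN and FAD), and cells grown in it for 24, 48 or 72 h are called depleted cells here, while control cells were grown for the same times in standard DMEM. Both media held 10% foetal calf serum with penicillin and streptomycin, the labels add that dialysed serum of the same batch was used in some cultures without naming them, and the sources used here do not give the degree of depletion reached. There were 3 arrays in each of the 6 groups, 18 in all, and the array numbers run through all 6 groups once per set of 6 arrays, so each of 3 sets holds 1 array of every group.

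The respiratory chain passes electrons from NADH and succinate to oxygen and pumps protons across the inner mitochondrial membrane, and the ATP synthase lets them flow back to make ATP. Complex II is the succinate dehydrogenase of the TCA cycle, and its subunit SDHA carries a covalently bound FAD. Complex III passes electrons from ubiquinol to cytochrome c, complex IV passes them on to oxygen, and the catalytic cores of complexes III and IV include subunits made from mitochondrial DNA, which were not analysed here.

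Values are MAS5 signals on a linear scale, which the authors scaled to a common mean. Changes are differences of log2(signal + 16), depleted minus control, from a limma fit of all 18 arrays with the set as a block, and adjusted p-values are Benjamini-Hochberg values over the 27307 probe sets tested (threshold 0.05). The offset of 16 makes fold changes of dim probe sets look smaller. The member probe sets lay at mean log2 values of 7.86 to 12.38, the dimmest at the 85.94th percentile of all probe sets. Set 2 stood apart: its arrays had medians of 25.7 to 31.3 and highest signals of 27380.2 to 31409.8, while those of sets 1 and 3 had medians of 18.4 to 23.3 and highest signals of 6904.8 to 8574.5. Precision is limited throughout by the number of arrays. The labels do not say whether the arrays of a group came from separate cultures, so p-values cover the spread between these samples alone, which may be technical. In bulk RNA, fewer cells of a kind and less RNA per cell cannot be told apart.

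Averaged over the 3 times, all 35 genes had a change below 0, and 19 of them passed the test as lower in depleted cells while 0 passed as higher (28 were lower and 0 higher at an unadjusted p under 0.05 by limma). Among all probe sets tested, 6.46% passed as lower and 8.55% as higher. The largest falls were in the ATP synthase genes ATP5MC1 (-0.97), ATP5ME (-0.54), ATP5PD (-0.47) and ATP5MC3 (-0.46), and in the complex III gene UQCRQ (-0.51). The median change of the 35 was -0.26 (range -0.97 to -0.05), against 0.02 over all probe sets. Of 711 probe sets with mean log2 values between the quartiles of these genes (10.53 to 11.69), 150 (21.1%) passed as lower and 50 as higher, with a median of -0.11. Without the set as a block, limma called 4 of the 35 (UQCRQ, ATP5PD, ATP5MC1 and ATP5MC3), against 1.53% of all probe sets lower and 2.73% higher.

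With single arrays left out, 11 to 17 genes were called. The count was 11 without the depleted 48 h array of set 1, the depleted 72 h array of set 1 or the control 48 h array of set 3, and 12 without the control 72 h array of set 1 or of set 2. Leaving out set 1, 2 or 3 as a whole gave 2, 8 and 2 calls. Over all probe sets tested, 4097 calls in either direction became 3170 to 3739 without 1 array. Without set 1, 2 or 3 they were 235 lower and 396 higher, 1447 and 1875, and 221 and 337. ATP5MC1 was called in every one of these 21 fits. Each set gives 1 depleted and 1 control array at each time, 9 pairs in all, and 20 of the 35 genes were lower in the depleted array in all 9, as were 3.48% of all probe sets. A further 8 genes were lower in 8 pairs, 6 in 7 and UQCRB in 6.

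**Figure D1:**
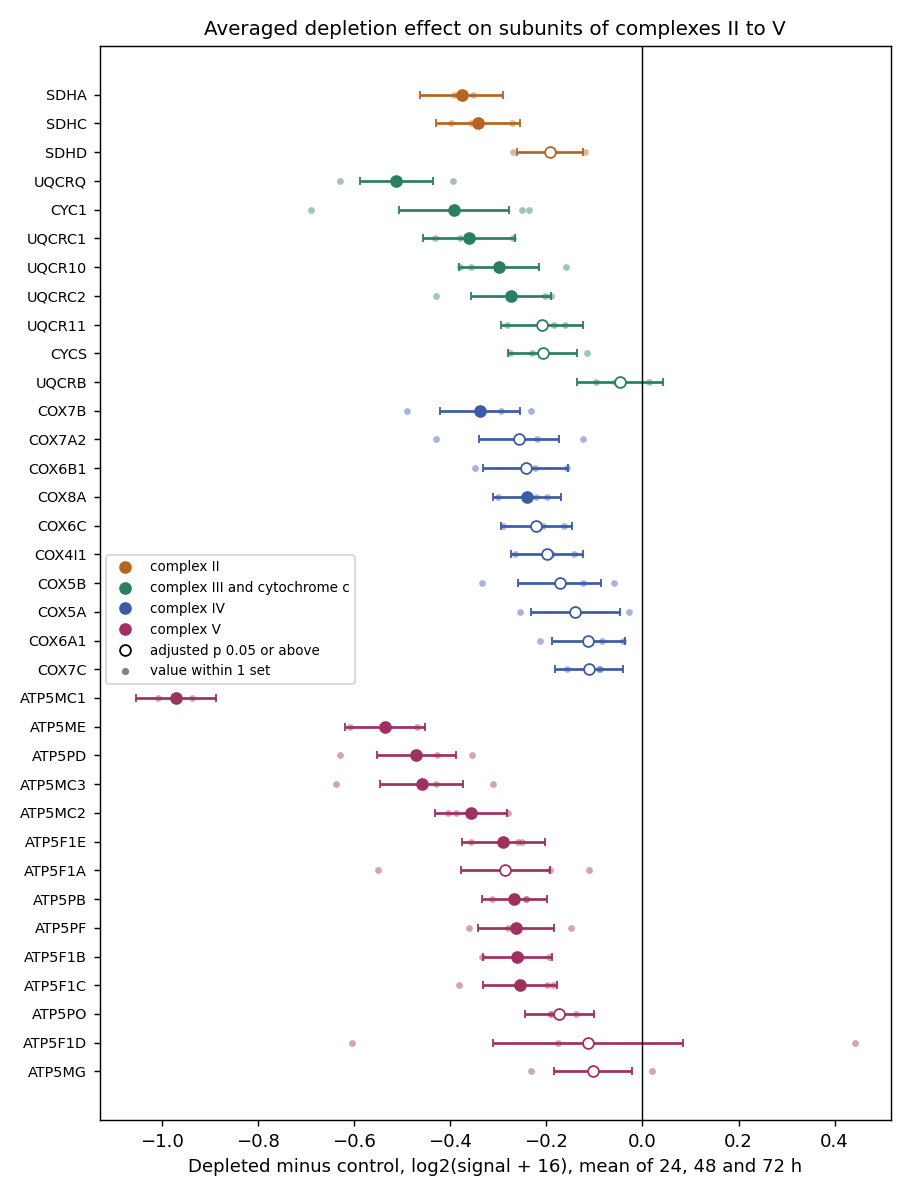
Change of each measured subunit gene, depleted minus control cells, in log2(signal + 16) averaged over 24, 48 and 72 h. Large points are the limma estimates with their SE, filled where the adjusted p is under 0.05, and small points are the values within each of the 3 sets. All 35 estimates lie below 0, with ATP5MC1 at -0.97 farthest from it.

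The 250 bases before the annotated start of 6 genes are printed from RefSeq (GRCh38.p14), 5′ to 3′ on the strand of the gene. They belong to the flavin-bearing subunit SDHA, to the called genes UQCRQ and ATP5PD, and to the called ATP synthase genes ATP5MC1, ATP5MC2 and ATP5ME. The positions are chr5:218070-218319 (+) for SDHA, chr5:132866392-132866641 (+) for UQCRQ, chr17:75046970-75047219 (-) for ATP5PD, chr17:48892537-48892786 (+) for ATP5MC1, chr12:53676084-53676333 (-) for ATP5MC2 and chr4:674277-674526 (-) for ATP5ME. Capitals mark matches, on either strand, to 6 motifs: GCGCA and GCGC with 1 base between them for NRF1 and CCGGAAG for GABP (both activators of nuclear genes for mitochondrial proteins), AAGATGGC for YY1, CAAGGTCA for ERR alpha, TGACGTCA for the cAMP response element, and CCAAT. The last pair of motifs was added after the sequences and the values had been seen.
SDHA: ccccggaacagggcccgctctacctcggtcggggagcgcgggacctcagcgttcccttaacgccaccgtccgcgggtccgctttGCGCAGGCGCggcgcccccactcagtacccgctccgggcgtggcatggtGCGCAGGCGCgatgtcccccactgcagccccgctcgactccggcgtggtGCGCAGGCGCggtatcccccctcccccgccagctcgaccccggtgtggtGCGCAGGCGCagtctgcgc
UQCRQ: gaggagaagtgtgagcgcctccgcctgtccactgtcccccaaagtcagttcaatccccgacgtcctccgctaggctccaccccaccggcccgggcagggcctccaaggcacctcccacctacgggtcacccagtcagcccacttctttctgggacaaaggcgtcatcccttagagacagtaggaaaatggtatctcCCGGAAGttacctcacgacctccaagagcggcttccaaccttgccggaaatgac
ATP5PD: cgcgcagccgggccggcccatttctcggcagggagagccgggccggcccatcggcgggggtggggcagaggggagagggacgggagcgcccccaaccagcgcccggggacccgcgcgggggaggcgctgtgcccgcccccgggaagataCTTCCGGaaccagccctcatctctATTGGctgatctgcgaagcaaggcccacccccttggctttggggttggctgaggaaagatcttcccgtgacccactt
ATP5MC1: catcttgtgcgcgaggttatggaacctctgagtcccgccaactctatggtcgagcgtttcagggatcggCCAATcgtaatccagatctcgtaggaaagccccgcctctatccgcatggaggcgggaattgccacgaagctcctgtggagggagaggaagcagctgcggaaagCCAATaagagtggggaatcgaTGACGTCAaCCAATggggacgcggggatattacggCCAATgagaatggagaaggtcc
ATP5MC2: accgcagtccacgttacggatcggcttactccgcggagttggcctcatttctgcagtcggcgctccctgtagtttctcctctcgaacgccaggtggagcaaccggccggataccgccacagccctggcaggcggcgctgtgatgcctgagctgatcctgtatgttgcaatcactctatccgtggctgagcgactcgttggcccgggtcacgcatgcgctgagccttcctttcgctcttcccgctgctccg
ATP5ME: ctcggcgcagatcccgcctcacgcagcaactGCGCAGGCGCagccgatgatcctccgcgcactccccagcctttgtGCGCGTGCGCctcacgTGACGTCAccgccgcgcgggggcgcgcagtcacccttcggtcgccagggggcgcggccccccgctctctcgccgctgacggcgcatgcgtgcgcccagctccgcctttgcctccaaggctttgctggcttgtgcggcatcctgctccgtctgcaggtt

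The SDHA sequence held 4 NRF1 matches, whose first bases lay 166, 117, 68 and 19 bases before the start. UQCRQ held a GABP match at 54 bases, and ATP5PD a GABP match at 101 and a CCAAT box at 77 bases. ATP5MC1 held TGACGTCA at 57 bases and CCAAT at 181, 78, 48 and 22 bases, with neither NRF1 nor GABP letters. ATP5ME held NRF1 matches at 219 and 174 bases and TGACGTCA at 158, and ATP5MC2 held none of the 6. No marked matches overlapped in these 6 windows. Of the 39 genes 31 had a promoter in the table. NRF1 letters stood in 8 of the 31 (25.8%) against 5.53% of all 27305 promoters, GABP letters in 11 (35.5%) against 8.82%, and CCAAT in 11 (35.5%) against 33.0%. TGACGTCA stood in 2 (6.45%) against 1.77%, YY1 letters in ATP5PF and ERR alpha letters in ATP5MG only (3.23% each), against 1.37% and 1.17% of all promoters. The 27305 promoters were not matched to the 31 for base composition, and its part in these shares was not tested. Of the 28 measured genes with a promoter, the 14 with NRF1 or GABP letters had a median change of -0.25 and 8 calls, and the 14 with neither had -0.27 and 7 calls, which is a description with no test. A match marks letters and does not show that the factor binds.

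In complex II 2 of the 3 measured genes fell, which here and below means that they passed the test as lower. All 3 had a change below 0, with a median of -0.34 on the log2 scale. Counts by complex stand beside 6.46% of all probe sets lower. The 21.1% lower among the 711 probe sets covers mean log2 values of 10.53 to 11.69 only. SDHA (9.34) and SDHC (9.88) lay below that range, as did others, among them UQCRC1, CYC1, ATP5MC1, ATP5MC2 and ATP5ME. Some complex V genes lay above it, such as ATP5F1E (12.38). No share matched to the brightness of each complex was computed. SDHA, the flavoprotein that oxidises succinate, had signals in depleted cells of 703, 460.3 and 637 at 24 h, 641, 384 and 706 at 48 h, and 579, 344 and 682 at 72 h (sets 1 to 3). Its control signals were 825, 604 and 902 at 24 h, 812, 438 and 1027 at 48 h, and 826, 525 and 760.1 at 72 h. The depleted array lay below the control array of its set in 9 of 9 pairs, but the groups overlapped at each time, and set 2 was the dimmest in both media. Averaged over the times, SDHA changed by -0.38 (SE 0.09) with an adjusted p of 0.0111 by limma, and 0.342 without the block. Its probe set has a suffix (_x_at) that marks possible matches to other transcripts, and SDHA has pseudogene copies, so its value is uncertain. The same suffix stands on the probe sets of COX4I1, COX7C, ATP5F1C, ATP5ME and ATP5MG, 6 of the 35.

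SDHC and SDHD anchor complex II in the membrane and hold its haem. In depleted cells SDHC signals were 1088, 644 and 862 at 24 h, 1107, 759.5 and 994 at 48 h, and 906, 462 and 773 at 72 h, again by set. In control cells SDHC signals were 1514, 683 and 1006 at 24 h, 1371, 1005 and 1095 at 48 h, and 1112, 771 and 1065 at 72 h. SDHC was lower in all 9 pairs while the groups overlapped at every time, and set 2 was the dimmest in both media. SDHC changed on average by -0.34 (SE 0.09), adjusted p = 0.0188 by limma (0.346 without the block).

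In depleted cells SDHD signals were 2343, 2118 and 1951 at 24 h, 2617, 2204 and 2314 at 48 h, and 2306, 2310.0 and 2020.3 at 72 h. In control cells SDHD signals were 3190.2, 2566 and 2484 at 24 h, 2859, 2613 and 2445 at 48 h, and 2724, 2069.9 and 2232 at 72 h. At 24 h every depleted array lay below every control array, and at 48 and 72 h the groups overlapped. The averaged change of SDHD, -0.19 (SE 0.07), did not pass the test (adjusted p = 0.0767 by limma).

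In complex III with cytochrome c 5 of 8 genes fell, all 8 had a change below 0, and the median was -0.29. UQCRQ, a small subunit that contacts cytochrome b, was the one that fell most. In depleted cells UQCRQ signals were 1634, 1497 and 1255 at 24 h, 1893, 2016 and 1526 at 48 h, and 1098, 997 and 1081 at 72 h. In control cells UQCRQ signals were 2152, 2400.1 and 1908 at 24 h, 2138, 2594 and 2119.7 at 48 h, and 1690.1, 1810.0 and 1505 at 72 h. Every depleted array lay below every control array at each of the 3 times. UQCRQ averaged 1059 ± 53.9 in depleted cells and 1668 ± 154 in control cells at 72 h (SD, n = 3 each). Its averaged change was -0.51 (SE 0.08), adjusted p = 0.000777 by limma (0.0131 without the block).

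UQCRC1 is a core subunit on the matrix side of complex III. In depleted cells UQCRC1 signals were 695, 768 and 964 at 24 h, 679, 971 and 1106 at 48 h, and 633, 951 and 929 at 72 h. In control cells UQCRC1 signals were 913, 1002 and 1208 at 24 h, 930.3, 889 and 1498 at 48 h, and 879.5, 1409 and 1222 at 72 h. The depleted array was lower in 8 of 9 pairs, all but that of set 2 at 48 h, and the groups overlapped at each time. The averaged change was -0.36 (SE 0.10), adjusted p = 0.0236 by limma (0.23 without the block).

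UQCR10 is a small membrane subunit of the same complex. In depleted cells UQCR10 signals were 2816, 3165 and 2148 at 24 h, 3012, 2680.1 and 2691 at 48 h, and 1929, 2177 and 1764 at 72 h. In control cells UQCR10 signals were 3306, 3842 and 2353 at 24 h, 3285, 3802 and 2694 at 48 h, and 3182, 2802 and 2242 at 72 h. The groups were apart at 72 h and overlapped at 24 and 48 h. The averaged change was -0.30 (SE 0.08), adjusted p = 0.0293 by limma (0.245 without the block).

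CYC1 encodes cytochrome c1, which hands electrons to cytochrome c. In depleted cells CYC1 signals were 470.4, 433 and 736 at 24 h, 572, 632 and 1049.5 at 48 h, and 490.0, 553 and 943 at 72 h. In control cells CYC1 signals were 1096, 564 and 1083 at 24 h, 809, 655 and 1315 at 48 h, and 646, 679 and 869 at 72 h. Set 3 was the highest in 5 of the 6 groups, and the media overlapped at each time. The averaged change was -0.39 (SE 0.11), adjusted p = 0.0343 by limma (0.332 without the block), and within sets 1 to 3 the 24 h change was -1.19, -0.37 and -0.55.

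The other core subunit UQCRC2 fell by 0.27 (adjusted p = 0.0414 by limma, 0.257 without the block). UQCR11 (-0.21, SE 0.09), the electron carrier CYCS (-0.21, SE 0.07) and UQCRB (-0.05, SE 0.09) did not pass. CYCS passed at 24 h alone among the times, where its depleted signals were 3696, 3903 and 3150.1 and its control signals 5061, 6157 and 4249. Those groups did not overlap, and the change was -0.51 (SE 0.12), adjusted p = 0.0486 by limma (0.493 without the block). At 72 h the CYCS change was 0.01 (SE 0.12), and the difference between 72 and 24 h, 0.52 (SE 0.18), did not pass (adjusted p = 0.114 by limma).

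In complex IV 2 of 10 genes (20%) passed as lower, with a median of -0.21 and changes of -0.34 to -0.11. That share is near the 21.1% of the 711 probe sets of like brightness and above the 6.46% of all probe sets. COX7B, a small subunit needed for assembly of the complex, was 1 of the 2 genes. In depleted cells COX7B signals were 2957, 2644 and 2131 at 24 h, 2924, 2269 and 2307 at 48 h, and 2531, 1775 and 1965 at 72 h. In control cells COX7B signals were 3586, 3593 and 2594 at 24 h, 3282, 3485 and 3034 at 48 h, and 3016, 2372 and 2273 at 72 h. All 9 pairs were lower in depleted cells, and the groups were apart at 48 h. COX7B changed on average by -0.34 (SE 0.08), adjusted p = 0.0157 by limma (0.149 without the block).

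COX8A, another small subunit, was the other. In depleted cells COX8A signals were 1811, 2108 and 1659 at 24 h, 1762, 2462 and 1804 at 48 h, and 1571, 2424 and 1856 at 72 h. In control cells COX8A signals were 2181, 2587 and 1935 at 24 h, 2194, 2688 and 2213 at 48 h, and 1966, 2739 and 2063 at 72 h. The depleted array was lower in all 9 pairs, set 2 was brightest in both media, and the groups overlapped at each time. Its averaged change was -0.24 (SE 0.07), adjusted p = 0.0373 by limma (0.362 without the block).

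COX7A2 and COX6C are further small subunits. In depleted cells COX7A2 signals were 3379, 3848 and 2502 at 24 h, 3077, 3827 and 2837 at 48 h, and 3082, 3261 and 2674 at 72 h. In control cells COX7A2 signals were 4029, 5658 and 2751 at 24 h, 3801, 5276 and 3360.1 at 48 h, and 3308, 3941 and 2663 at 72 h. The groups overlapped at each time, and the averaged change of -0.26 (SE 0.08) did not pass (adjusted p = 0.0521 by limma).

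In depleted cells COX6C signals were 3078, 3606 and 2361 at 24 h, 3263, 3463 and 2738 at 48 h, and 2634, 3046 and 2365 at 72 h. In control cells COX6C signals were 3429, 4507 and 2586 at 24 h, 3643, 3934 and 3248 at 48 h, and 3269, 3938 and 2562 at 72 h. COX6C was lower in all 9 pairs with overlapping groups, and its averaged change of -0.22 (SE 0.07) did not pass (adjusted p = 0.062 by limma). The other 6 genes did not pass either. Their averaged changes were -0.24 for COX6B1, -0.20 for COX4I1, -0.17 for COX5B, -0.14 for COX5A, -0.11 for COX6A1 and -0.11 for COX7C. A second bright COX4I1 probe set (mean log2 11.44), without the _x_at suffix, did pass, at -0.30 (adjusted p = 0.0202 by limma).

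Complex V held 10 of the 19 calls, among 14 genes measured, with a median of -0.28. The differences between complexes were not tested. The rotor ring of the ATP synthase is built of c subunits, and ATP5MC1, ATP5MC2 and ATP5MC3 encode the same mature c subunit behind different import sequences. In depleted cells ATP5MC1 signals were 416, 524 and 388 at 24 h, 540.0, 534 and 350.5 at 48 h, and 235, 281 and 208 at 72 h. In control cells ATP5MC1 signals were 876, 943 and 589 at 24 h, 767, 698 and 646 at 48 h, and 689, 888 and 602 at 72 h. Every depleted array lay below every control array at each time, and the depleted arrays were lowest at 72 h in each set. ATP5MC1 averaged 241 ± 36.8 in depleted cells and 726 ± 147 in control cells at 72 h (SD, n = 3 each). That change was -1.52 (SE 0.15), a ratio of 0.349, with adjusted p = 3.68e-05 by limma (0.00177 without the block). Within sets 1 to 3 it was -1.49, -1.61 and -1.46. At 24 h ATP5MC1 changed by -0.82 (SE 0.15), adjusted p = 0.0114 by limma (0.253 without the block), and its 48 h change of -0.57 (SE 0.15) did not pass (adjusted p = 0.0912). Averaged over the times, ATP5MC1 changed by -0.97 (SE 0.08), adjusted p = 1.23e-05 by limma (0.000796 without the block).

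In depleted cells ATP5MC3 signals were 2735, 2419 and 2375 at 24 h, 2744, 3353 and 2701 at 48 h, and 2344, 1855 and 2046 at 72 h. In control cells ATP5MC3 signals were 3526, 3633 and 3341 at 24 h, 3401, 4342 and 3591 at 48 h, and 2808, 3627 and 2685 at 72 h. The groups were apart at each of the 3 times. The averaged change of ATP5MC3 was -0.46 (SE 0.09), adjusted p = 0.00347 by limma (0.0235 without the block).

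In depleted cells ATP5MC2 signals were 866, 409 and 658 at 24 h, 631, 342 and 567 at 48 h, and 810.5, 488 and 649.9 at 72 h. In control cells ATP5MC2 signals were 961, 548 and 660.5 at 24 h, 910.2, 445 and 734 at 48 h, and 1149, 666 and 908 at 72 h. ATP5MC2 was lower in all 9 pairs, but the groups overlapped at every time, with set 2 the dimmest in both media. The averaged change was -0.36 (SE 0.07), adjusted p = 0.00624 by limma (0.387 without the block). All 3 c-subunit genes passed the averaged test with the block and 2 of them, ATP5MC1 and ATP5MC3, without it, but whether their changes differed from one another was not tested.

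**Figure D2:**
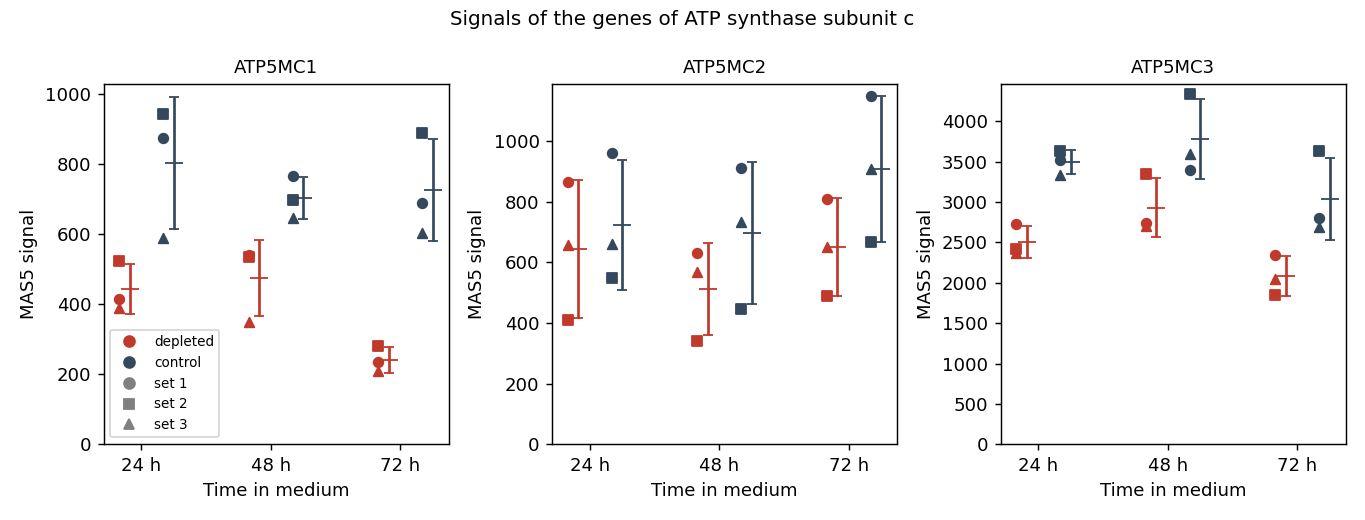
MAS5 signals of the c-subunit genes ATP5MC1, ATP5MC2 and ATP5MC3 on each array, by hours in medium, with depleted cells left of control cells, a marker for each set and the mean with its SD beside them (n = 3). ATP5MC1 and ATP5MC3 groups are apart at each time, and those of ATP5MC2 overlap.

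ATP5ME and ATP5PD belong to the membrane part and the peripheral stalk of the enzyme. In depleted cells ATP5ME signals were 956, 727 and 816 at 24 h, 1064, 561 and 951 at 48 h, and 666, 432 and 642 at 72 h. In control cells ATP5ME signals were 1343, 966 and 986 at 24 h, 1327, 878 and 1228 at 48 h, and 1162, 759.9 and 1113 at 72 h. The groups were apart at 24 and 72 h and overlapped at 48 h, where set 2 was low in both media. The averaged change of ATP5ME was -0.54 (SE 0.08), adjusted p = 0.00108 by limma (0.0691 without the block).

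In depleted cells ATP5PD signals were 2473, 2009 and 2066 at 24 h, 2424, 2102 and 2438 at 48 h, and 1809, 1512 and 1772 at 72 h. In control cells ATP5PD signals were 3247, 3423 and 2474 at 24 h, 2913, 2739 and 2969 at 48 h, and 2804, 2549 and 2558 at 72 h. The groups were apart at each time. The averaged change of ATP5PD was -0.47 (SE 0.08), adjusted p = 0.0021 by limma (0.0174 without the block).

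Among the catalytic and central-stalk genes, ATP5F1B (beta subunit) fell by 0.26, ATP5F1C (gamma) fell by 0.26 and ATP5F1E (epsilon) fell by 0.29. ATP5F1A (alpha, -0.29, SE 0.09) and ATP5F1D (delta, -0.11, SE 0.20) did not pass. ATP5F1D had the largest SE of the 35, and its 48 h change was -0.48, 1.29 and -0.82 in sets 1 to 3. Of the stalk genes ATP5PB fell by 0.27 and ATP5PF by 0.26, while ATP5PO (-0.17, SE 0.07), which links the stalk to the catalytic head, did not pass. ATP5MG, a membrane subunit, did not pass at -0.10 (SE 0.08). None of these 5 calls held without the block.

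**Figure D3:**
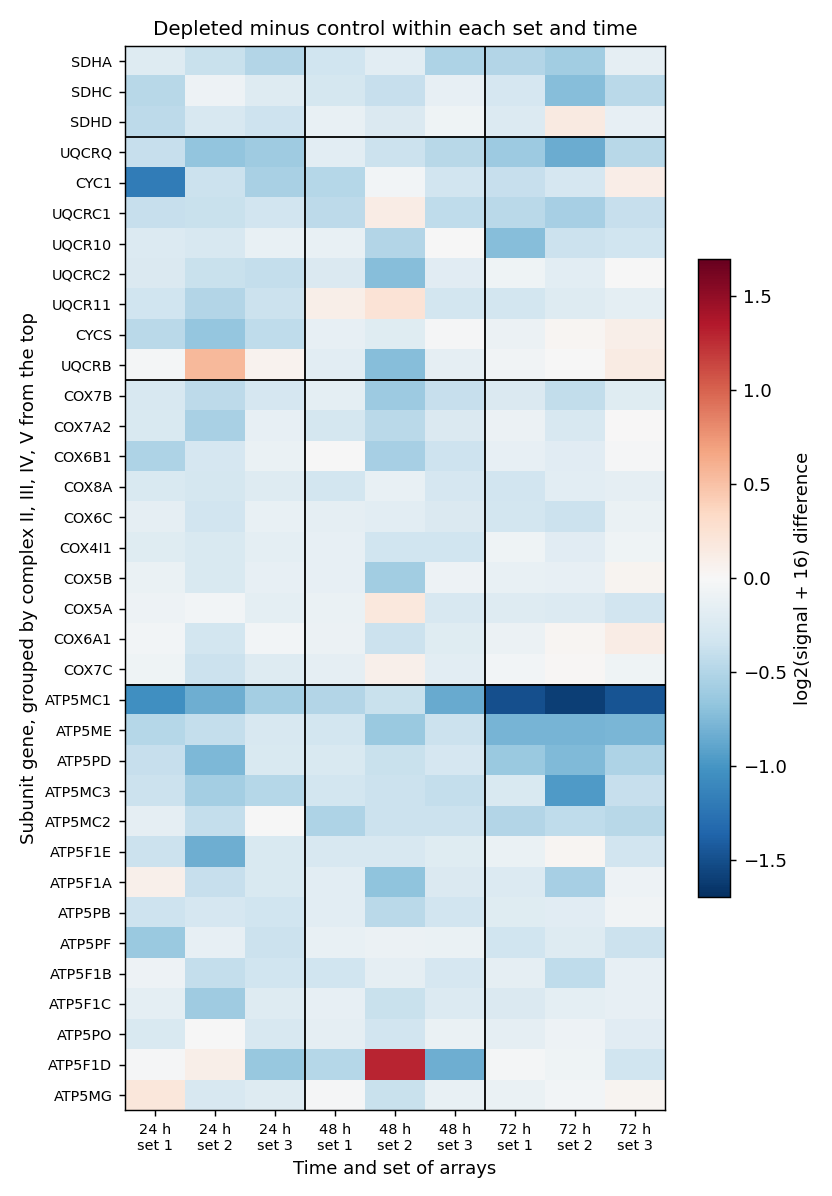
Change of each gene within each set and time, depleted minus control array in log2(signal + 16), with genes ordered by complex (cytochrome c with complex III). Blue marks values below 0. ATP5MC1 is the bluest row, at -1.61 to -0.38, and ATP5F1D in set 2 at 48 h stands out in red at 1.29.

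Time by time, 3 of the 35 genes passed at 24 h (UQCRQ, CYCS and ATP5MC1), against 0.813% of all probe sets lower and 1.55% higher. At 48 h 0 passed, against 0.165% lower and 0.527% higher, with 13 lower at an unadjusted p under 0.05 by limma. At 72 h 8 passed (SDHC, UQCRQ, UQCR10, ATP5PD, ATP5MC1, ATP5MC2, ATP5MC3 and ATP5ME), against 6.9% lower and 6.4% higher, and 5 of the 8 belong to complex V. In each of these comparisons 0 genes passed as higher, also at an unadjusted p under 0.05 by limma. Without the block the counts were 0 at 24 h (0.0403% of all probe sets lower, 0.176% higher), 0 at 48 h (0.011% and 0.0696%) and 1 at 72 h, ATP5MC1 (1.93% and 2.23%). The medians were -0.31, -0.27 and -0.22 at 24, 48 and 72 h, with 34, 34 and 32 of the 35 genes below 0. These medians depended on the scaling. After quantile normalization they were -0.23, -0.14 and -0.23, with 33, 29 and 33 of the 35 below 0. With arrays centred on their 75th percentile they were -0.35, -0.42 and -0.20. At 48 h the median of all probe sets was then -0.05 against 0.07 as deposited. The median of the averaged effect was -0.18 after quantile normalization and -0.32 with that centring. The 711 probe sets of like brightness had medians of -0.11, -0.17 and -0.07 at 24, 48 and 72 h, with 450, 564 and 433 below 0. Groups that did not overlap, with every depleted array lower, were found for 9, 10 and 9 genes, against 5.28%, 3.77% and 11.6% of all probe sets. In 0 genes did the depleted arrays all lie higher, against 7.5%, 8.07% and 11.5% of all probe sets.

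The counts at single times moved with single arrays. At 24 h the count was 0 without either 24 h array of set 1, 1 without any other 24 h array, any later array of set 1, the control 72 h array of set 2, either 48 h array of set 3 or its control 72 h array, and 0 without any whole set. ATP5MC1 kept its 24 h call in 16 of 18 fits without 1 array, UQCRQ in 4 and CYCS in 1. At 72 h the count was 4 without the control 72 h array of set 1, 2 or 3 or the depleted one of set 3, 5 without the depleted one of set 1 or 2, and 1, 2 and 1 without set 1, 2 or 3. UQCRQ, ATP5PD, ATP5MC1 and ATP5ME kept their 72 h calls in all 18 fits without 1 array. Over all probe sets, 646 calls at 24 h became 214 to 738 without 1 array and 0 to 232 without 1 set. At 72 h, 3631 calls became 2135 to 3799 and 349 to 2853.

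The change of the effect with time was tested as an interaction. For 48 h against 24 h 0 genes passed, as did 0% of all probe sets, with 2 genes at an unadjusted p under 0.05 by limma and 0 called without the block. For 72 h against 24 h 0 passed, against 2.71% of all probe sets lower and 1.87% higher, again with 2 at an unadjusted p under 0.05 and 0 called without the block (0.293% of all lower, 0.352% higher). The lowest adjusted p was that of ATP5MC1, whose depletion effect at 72 h minus that at 24 h was -0.70 (SE 0.21) on the log2 scale (adjusted p = 0.0716 by limma). Within depleted cells 3 genes fell between 24 and 72 h, against 5.93% of all probe sets lower and 4.37% higher. These were ATP5MC1 (-0.83, SE 0.15, adjusted p = 0.00348), ATP5ME (-0.53, SE 0.15, 0.0354) and UQCRQ (-0.45, SE 0.13, 0.0454), all by limma. The count was 0 without the block (1.13% of all lower, 0.941% higher), 1 without the depleted 24 h array of any set or the depleted 72 h array of set 1 or 2, and 0, 1 and 0 without set 1, 2 or 3. Over all probe sets 2812 calls became 1424 to 3040 without 1 array and 4 to 1852 without 1 set. The median of the 35 was -0.08, with 23 below 0 and 5 lower at an unadjusted p under 0.05 by limma. Within control cells 0 passed over the same time, against 0.487% lower and 0.729% higher, with 6 lower and 1 higher at an unadjusted p under 0.05 by limma and 0 called without the block (0.0659% of all lower, 0.0513% higher). The control median was -0.15, with 29 below 0. The difference between the media over this time is the interaction above, in which 0 genes passed. ATP5MC1, ATP5ME and UQCRQ changed in control cells by -0.13 (SE 0.15), -0.13 (SE 0.15) and -0.36 (SE 0.13). These comparisons share arrays with the depletion effects and are not independent of them.

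Of the 35 genes 20 have further probe sets under the same symbol that passed the filter on low values. Further probe sets of SDHC, SDHD, UQCRB, COX4I1, COX6A1, ATP5F1A, ATP5PO and ATP5MC2 lay below it and were left out. The 16 further probe sets with a mean log2 of 9 or above all had a change below 0, 6 passed as lower, and their median was -0.26. The 20 dimmer ones had a median of -0.01, with 10 below 0, 1 lower (the dimmest ATP5MC3 probe set, at -0.74) and 3 higher. Those that were higher belonged to UQCRC2 (0.71, adjusted p = 0.0162), ATP5F1C (0.61, 0.00224) and COX4I1 (0.40, 0.0323), by limma, so for these 3 genes the dim and the bright probe set disagree in sign. Dim probe sets of UQCRB, CYCS, COX5A, COX7B, ATP5PB and ATP5PD also lay above 0 without passing. For ATP5PD the dim one was at 0.15 (SE 0.11), and 0.41 at 72 h, and with the mean over its probe sets ATP5PD changed by -0.16 averaged over the times and by -0.11 at 72 h.

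**Figure D4:**
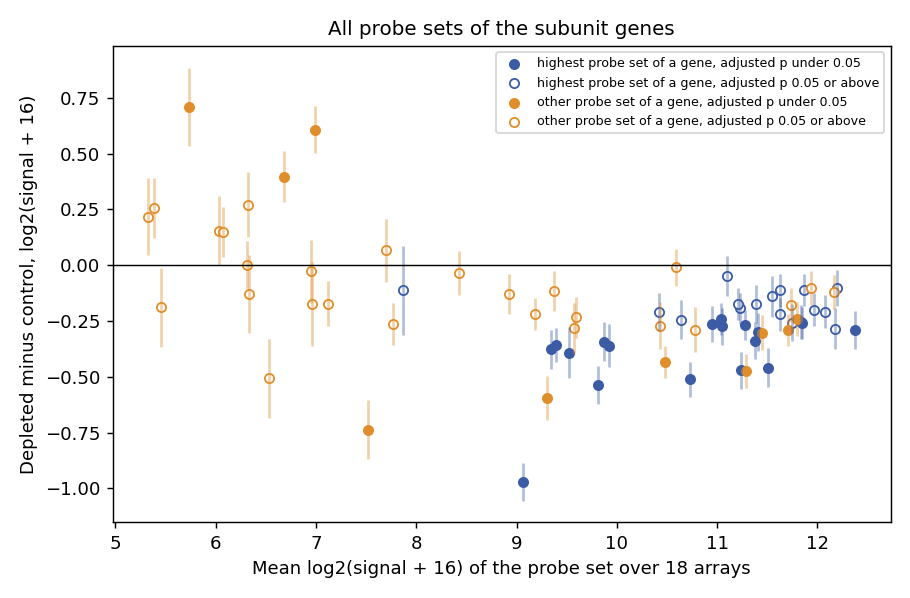
Averaged change of every probe set of the measured genes that passed the filter, depleted minus control in log2(signal + 16), against its mean log2(signal + 16). The probe set used for each gene and the 16 further ones at 9 or above lie below 0, and the further ones under 9 lie on both sides of 0. Bars are the SE, and filled points have an adjusted p under 0.05.

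Related genes were counted in the same way, averaged over the times, and their counts stand beside 6.46% of all probe sets lower with the block and 1.53% without it. Of the 711 probe sets of like brightness to the complex II to V genes, 21.1% were lower with the block. No share matched to the brightness of each list was computed. Of 7 measured subunits and isoforms outside the list, 3 fell: ATP5MJ (-0.31) and ATP5MK (-0.37), small membrane subunits, and ATP5IF1 (-0.40), the inhibitor of ATP hydrolysis by the synthase. The median of the 7 was -0.31. Of the complex II and III assembly factors 3 of 9 fell (median -0.15): UQCC1 (-0.61), UQCC3 (-0.44) and SDHAF4 (-0.51). For complex IV 6 of 24 fell (median -0.15), among them COA1 (-0.63), COA3 (-0.54) and COX16 (-0.43). For complex V 2 of 5 fell (median -0.30), ATPAF1 (-0.73) and FMC1 (-0.32). Complex I subunits fell in 18 of 33 genes (median -0.30), with NDUFA8 at -0.58, mitochondrial ribosomal proteins in 34 of 75 (median -0.29, 1 higher), with MRPL39 at -0.66, and pyruvate dehydrogenase and TCA cycle enzymes in 6 of 15 (median -0.23), with PDHA1 at -0.56. Of the carriers, porins and import receptors 1 of 11 fell (median -0.11), the porin VDAC3 (-0.38), a share near that of all probe sets. A change below 0 was seen in 9 of the 11. In each of these lists other than the ribosomal proteins 0 genes passed as higher, and 1 of the complex II and III assembly factors and 1 of the carrier list were higher at an unadjusted p under 0.05 by limma. Without the block limma called 3 complex I genes, 3 ribosomal protein genes, 1 gene in each of the TCA cycle list and the 3 assembly lists, and 0 in the other subunits and the carriers.

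Regulators of respiratory genes gave 1 call among 15, SSBP1 (-0.33, SE 0.09, adjusted p = 0.0194 by limma), which binds single-stranded mitochondrial DNA, and a median of -0.05. That share is near the 6.46% of all probe sets lower, and without the block 0 of the 15 were called. The transcription factor genes NRF1 (-0.09, SE 0.09) and GABPA (-0.06, SE 0.09), whose letters were searched in the promoters, did not pass. TWNK, the mitochondrial DNA helicase, had 0.27 (SE 0.09) averaged over the times and did not pass (adjusted p = 0.0623 by limma).

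**Figure D5:**
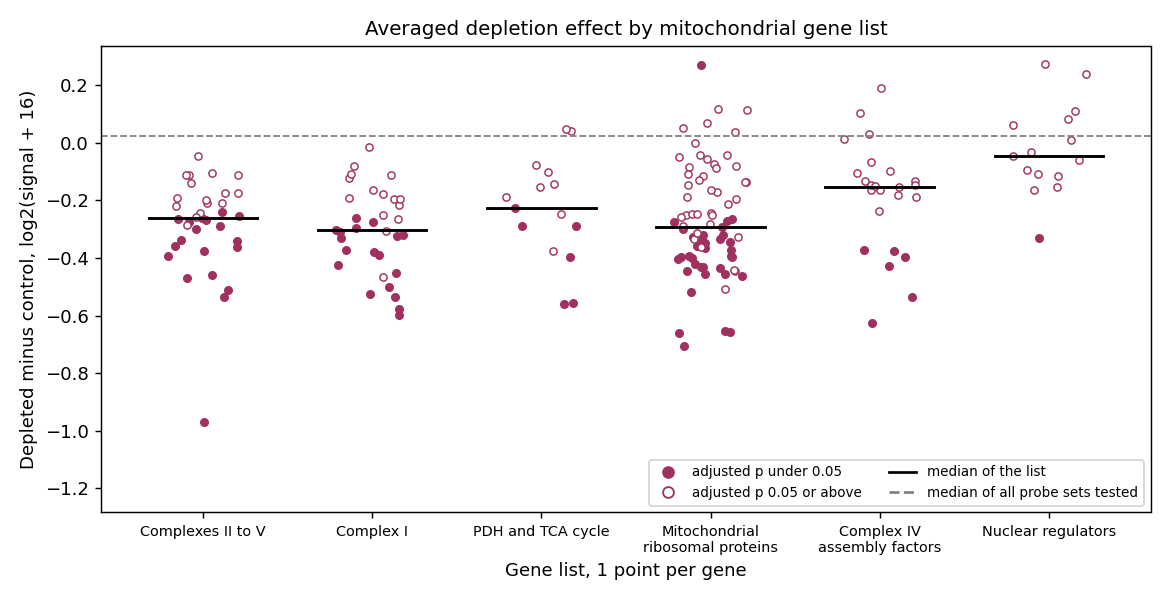
Averaged change of every measured gene in each list, depleted minus control in log2(signal + 16), with the median of each list as a black line and called genes filled. The median is -0.26 for complexes II to V, -0.30 for complex I, -0.23 for pyruvate dehydrogenase and the TCA cycle, -0.29 for mitochondrial ribosomal proteins, -0.15 for complex IV assembly factors and -0.05 for the regulators, and the dashed line is the median of all probe sets.

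Of the 11 epithelial and intestinal markers 10 passed the filter, and EPCAM, an epithelial surface marker, had signals of 4511 to 11128 in depleted and 4716 to 13001 in control arrays. LGALS4, at a mean log2 of 4.78, lay below the filter of 5.15, and CDX1 (5.18) and KRT20 (5.22) lay just above it. Of the 10, 0 passed in the averaged effect, with 0 at an unadjusted p under 0.05 by limma and 0 called without the block. The summed signal of all 11, tested or not, was 21933.3 to 32318.3 in depleted arrays and 22326.8 to 35555.0 in control arrays. Of 8 fibroblast markers 5 passed the filter. Of these 5, COL1A1 (-0.61) passed as lower and LUM (0.35) as higher, with 1 lower and 2 higher at an unadjusted p under 0.05 by limma and 0 called without the block. The summed signal of all 8 was 407.3 to 662.2 in depleted and 498.7 to 788.5 in control arrays. Of 8 leukocyte markers 7 had a probe set and 5 passed the filter. Among the 5, 0 were called (0 at an unadjusted p under 0.05 by limma). The summed signal of the 7 was 206.8 to 353.3 in depleted and 153.6 to 459.9 in control arrays. The part of any of these in the subunit changes was not tested.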

How the data were processed

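RNA of Caco-2 cells was hybridised to 18 Affymetrix arrays. The deposited intensity values are MAS5 signals on a linear scale, per the submitters' processing notes, with no version stated. Their trimmed mean was 100.0 on each array, 2 percent being trimmed at each end. No pair of arrays was identical (0 pairs), and 3 arrays of set 2 carry a suffix of unstated meaning. Control probe sets (62 of 54675) were left out, and probe sets at or above the median mean log2(signal + 16) of 5.1546 were kept. Symbols came from the annotation of the platform: 41091 probe sets have 1, 1801 several and 11721 none.

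limma 3.58.1 in R 4.3.3 fitted 6 group means with the set as replicate block, after a test on simulated data. The sets come from the array numbers in the titles. With group means removed, arrays correlated at 0.302 to 0.602 within sets (45 pairs) and -0.754 to 0.163 between sets. Each of 18 correlated best with its own set. Each group mean holds 1 array of every set, so removing it by itself lowers correlations between arrays of the same group. Its part in the gap between these ranges was not tested. Alternatives were no block, offsets of 1 and 64, other filters, scalings and variance priors, and the mean over the probe sets of a gene past the filter. Others were the arrays of 1 time alone, and leaving out arrays or sets. Values in every array are given for SDHA, the c-subunit genes and up to 4 genes per complex with the smallest p, and other lists have up to 3 genes named. CYCS, EPCAM, NRF1, GABPA and the further probe sets that passed were added after their values were seen. The genes, lists and tests were chosen with earlier results of these data known. Figures used Python 3.11.15 and matplotlib 3.10.9.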

Additional observations from a re-analysis of the deposited data

How the results depend on the processing

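Of 35 genes, the 19 called in the averaged effect became 4 with no replicate block, 7 with no filter, 9 after quantile normalization and 12 with the mean over the probe sets of a gene past the filter. They became 23 with a filter at the 60th percentile, 24 with centring on the 75th percentile, 25 with an offset of 64 and 28 with a trended prior. With 1 array left out the count was 11 to 17, and with 1 set left out 2 to 8. The 3 calls at 24 h became 0 with no replicate block, 6 with an offset of 64, 9 with a trended prior, 0 with the 24 h arrays alone, and 1 with no filter, with centring on the 75th percentile or after quantile normalization. Leaving out arrays gave 0 to 3, and leaving out a set gave 0. At 48 h the 0 calls became 1 with an offset of 64, centring on the 75th percentile or a trended prior. The 8 calls at 72 h became 1 with no replicate block, 4 with no filter, 5 with the mean over probe sets and 2 with the 72 h arrays alone. They became 6 with an offset of 1 or centring on the 75th percentile, 9 with an offset of 64 and 10 with a trended prior. They were 4 to 9 without 1 array and 1 to 2 without 1 set. The 0 calls in the change of the effect between 72 and 24 h became 1 with a filter at the 60th percentile and 2 with a trended prior. The 0 calls in control cells between those times became 1 with a trended prior. The 3 calls in depleted cells became 0 with no replicate block, 1 with no filter or with centring on the 75th percentile, and 5 with a trended prior. They were 1 to 4 without 1 array and 0 to 1 without 1 set.

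Averaged changes turned above 0 for UQCRC2 (0.0004), UQCRB (0.0037) and CYCS (0.0729) with the mean over probe sets, for UQCRB after quantile normalization (0.0409), and for ATP5F1D without the control 48 h array of set 3 (0.0008) or without set 3 (0.1328), while without set 2 it was -0.39. Of the alternatives computed for single genes, 1039 kept the direction and the side of the threshold, 319 lost the call, 27 gained one and 6 turned the direction. At single times only genes called in the main fit were followed. Gains could therefore be counted in the averaged effect alone, and the losses and gains have unlike bases. Over all probe sets the 4097 calls of the averaged effect became 1162 with no replicate block. Over the settings that kept all arrays they ran from 1162 to 4743. With the arrays of a set or a time left out, fewer arrays were fitted, and with no filter more probe sets were tested; the cause of the other shifts was not tested. Dim probe sets limit what can be read for ATP5MF and for the further probe sets under a mean log2 of 9.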

Other observations

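Among genes that work with these complexes, the following values at 72 h were picked after they had been seen. All are changes in log2(signal + 16) tested with limma. At that time 6.9% of all probe sets passed as lower and 6.4% as higher. Of the 15 regulators, with TWNK and GABPB1 among them, 1 passed as lower and 1 as higher, shares near these. In the 7 other subunits and isoforms and the 5 complex V assembly factors, 1 each passed as lower and 0 as higher. ATP5IF1, the inhibitor that blocks ATP hydrolysis by the synthase, had signals of 340.3, 526 and 306 in depleted cells and 751, 1209 and 570.3 in control cells (sets 1 to 3), a change of -1.05 (SE 0.20) with adjusted p = 0.00404 (0.324 without the block). ATPAF1, a chaperone for assembly of the catalytic head, had signals of 147, 119 and 94.6 in depleted cells and 303, 203 and 359 in control cells, a change of -1.14 (SE 0.24) with adjusted p = 0.00737 (0.0204 without the block). In the opposite direction, TWNK, the helicase of mitochondrial DNA, had signals of 165, 144 and 161 in depleted cells and 113, 70.4 and 92.3 in control cells, a change of 0.70 (SE 0.16) with adjusted p = 0.011 (0.102 without the block). GABPB1, a partner of GABPA, changed by -0.49 (SE 0.15) at 72 h with adjusted p = 0.0487 (0.203 without the block), while GABPA itself changed by -0.13 (SE 0.15) and did not pass.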
